A study of Mus musculus with 7 samples.

Results

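The 10 microRNAs (miRNAs) described here are miRNAs of mature neurons and synapses: mmu-miR-128, mmu-miR-129-3p, mmu-miR-129-5p, mmu-miR-132, mmu-miR-137, mmu-miR-138, mmu-miR-139-5p, mmu-miR-149, mmu-miR-153 and mmu-miR-218, written here without the mouse prefix mmu. They were chosen by name from the 566 mouse miRNA probes of the NanoString nCounter mouse miRNA panel, version 1.3, an assay that counts color-coded probes without amplification. The 3 normal samples were layers II to IV of the neocortex, dissected from CD1 wild-type mice aged 60 days (neocortex 1 and 3 male, neocortex 2 female). The 4 tumor samples came from transgenic CD1 mice labelled hGFAP-HaV12-Ras, in which the human promoter of the astrocyte filament gene GFAP drives an activated Ras, at postnatal days 65, 104, 125 and 134 (tumor 2 female, the others male). All neocortex samples were younger than all tumor samples, and the site of each tumor in the brain is not given in the sources used here, so age, brain region and tumor cannot be told apart. The labels do not say that the samples of a group came from separate animals, so the p-values measure the spread between these samples.

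A miRNA pairs with messenger RNAs mainly through its seed, the bases near its 5′ end, and lowers their translation and stability. In mature neurons such miRNAs adjust dendrite growth, the size of synapses, transmitter release and excitability. The astrocytoma is a glial tumor that grows within or beside normal tissue. In bulk tissue, fewer neurons and less miRNA per neuron cannot be told apart.

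The mature sequences show how little the members have in common at the sequence level. They are RefSeq sequences (GRCm38.p6), matched for 10 of 10 members, with the seed, bases 2 to 8, in capitals. Probe names without an arm were read as the main strand of the hairpin, and miR-129-3p as the 3p strand of Mir129-2; the probe sequences themselves were not used here. miR-212, the cluster partner of miR-132, is shown with them because it shares a seed with it.
miR-128: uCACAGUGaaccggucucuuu
miR-129-3p: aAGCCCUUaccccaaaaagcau
miR-129-5p: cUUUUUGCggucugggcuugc
miR-132: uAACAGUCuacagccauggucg
miR-137: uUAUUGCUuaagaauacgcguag
miR-138: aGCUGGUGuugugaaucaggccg
miR-139-5p: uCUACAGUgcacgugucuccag
miR-149: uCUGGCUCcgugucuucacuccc
miR-153: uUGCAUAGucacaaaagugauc
miR-218: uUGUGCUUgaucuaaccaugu
miR-212: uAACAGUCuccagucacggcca

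No pair of the 10 members shared a full seed. The seeds of miR-128, miR-132 and miR-139-5p all hold the letters ACAGU, as do 12 of the 1674 different mature mouse sequences in the table (0.717%). miR-132 and miR-212 were equal over their first 9 bases and at 17 of 22 positions. Among the mature sequences in the table only miR-212-3p shared the seed of miR-132, and only miR-7002-3p, which has no probe of that name on the panel, shared that of miR-218.

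The genes lie apart in the genome, and several sit inside a protein-coding gene (GRCm38.p6). Both copies of the miR-128 hairpin lie in protein-coding genes, Mir128-1 in R3hdm1 (chr1:128202361-128202430) and Mir128-2 in Arpp21 (chr9:112118636-112118711). Mir139 lies in Pde2a (chr7:101475376-101475443), Mir149 in Gpc1 (chr1:92850378-92850443) and Mir153 in Ptprn2 (chr12:117250817-117250885). Mir218-1 and Mir218-2 lie in Slit2 (chr5:48223942-48224051) and Slit3 (chr11:35616816-35616925), genes of axon guidance cues. Mir138-2 lies in Nup93 (chr8:94324311-94324381), while Mir138-1 (chr9:122682876-122682974) and Mir137 (chr3:118433857-118433929) lay in no protein-coding gene of the table. Mir132 (chr11:75173682-75173747) follows Mir212 with 203 bases between the hairpins. The miR-129-5p sequence has a hairpin on chromosome 6, Mir129-1, and a hairpin on chromosome 2, Mir129-2 (chr2:94241364-94241453, minus strand). The table has no strand for the host genes, so these are overlaps of position.

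All 10 members were above the cutoff of the assay in all 7 samples, and so was miR-124, the defining miRNA of neurons. The deposited table lists at 0 any value below its sample's cutoff, which lay at 8 to 14 counts in neocortex and 13 to 16 counts in tumor. Total recovered miRNA counts were 23573 to 60773 in neocortex and 117669 to 207993 in tumor. The lowest member value was 26 counts, for miR-129-5p in neocortex 3, where counting error alone gives an SD of 0.28 on the log2 scale. For miR-128, the lowest value was 333 counts and that SD was 0.079. Intervals of this kind cover counting error only.

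The normal samples differed in miRNAs of other cells. Summed levels are given here as the log2 of the sum of the linear values, so the brightest miRNAs of a list weigh most. The summed level of 5 choroid plexus and ependyma miRNAs (miR-204, miR-34b-3p, miR-34b-5p, miR-34c and miR-449a) was 12.88 in neocortex 1, 9.27 in neocortex 2 and 10.61 in neocortex 3. In the tumors it was 10.02 to 11.06. miR-204 alone was at 12.65 in neocortex 1 and at 9.10 and 9.64 in the others, and most of the sum in neocortex 1 was miR-204. The other listed miRNAs were low or at 0 in neocortex 2. Neocortex 1 and 3 lay closer together for all of these but miR-449a, which was at 0 in neocortex 1 too. In neocortex 1 to 3, miR-34c was at 9.68, 5.26 and 9.07, miR-34b-3p at 7.32, 5.02 and 6.53, miR-34b-5p at 6.99, 0 and 6.67, and miR-449a at 0, 0 and 5.21. All 10 members had their lowest normal value in neocortex 1, as did 50.8% of the 197 miRNAs above the cutoff in all samples. The part of these other cells in the results was not tested, and the change of each member is given with and without neocortex 1.

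The comparison of tumor with neocortex asks which neuronal miRNAs differ between astrocytoma and gray matter. On the authors' scaling all 10 members had a lower mean in tumor, by 0.18 to 0.75 on the log2 scale, but none passed the test. The lowest were miR-128, miR-149 and miR-218, and the nearest to 0 were miR-153, miR-129-3p and miR-137. In limma, 0 of 10 were lower and 0 higher at a Benjamini-Hochberg adjusted p under 0.05, against 9.54% lower and 8.13% higher of the 283 miRNAs tested. At an unadjusted p under 0.05 limma gave 2 lower members, miR-149 and miR-218, and 0 higher, against 18% lower and 14.5% higher of all tested. The median change of the members was -0.52, that of all tested miRNAs 0.03. Over the 197 miRNAs above the cutoff in all samples, the set that all members belong to, the median was -0.29 and 68.0% lay below 0. Against that median, 7 of 10 members lay lower, with differences of -0.46 to 0.12. A dim miRNA at 0 in neocortex and listed in tumor has a large positive change by construction, and the set of 197 leaves such miRNAs out.

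**Figure D1:**
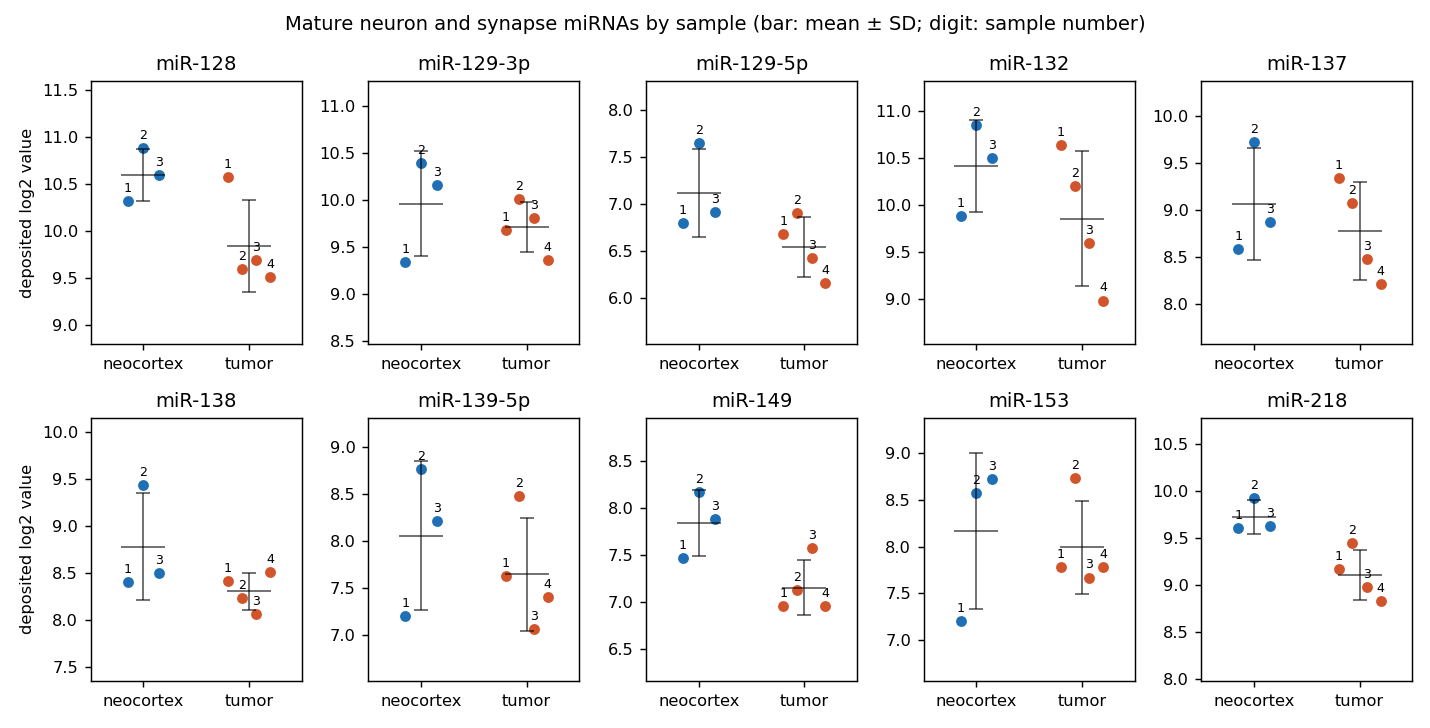
Deposited log2 values (y axis) of the 10 miRNAs in 3 neocortex samples (blue) and 4 tumor samples (orange), with the sample number above each point and the mean ± SD of each group in black; all panels span the same number of log2 units. For miR-218 the groups do not overlap, and for the other 9 they do.

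Among the members that act on excitability and dendrites, miR-128 had the largest difference. miR-128 limits the excitability of mouse neurons and is often low in human gliomas. Its values were 10.32, 10.88 and 10.59 in neocortex 1 to 3 and 10.57, 9.60, 9.69 and 9.51 in tumor 1 to 4. Tumor 1, the youngest tumor, lay within the neocortex range, and the other 3 tumors lay below every neocortex sample. The change was -0.75 (SE 0.31, 95% interval -1.51 to 0.004, limma adjusted p = 0.15), from a mean of 10.60 ± 0.28 (SD, n = 3) to 9.84 ± 0.49 (SD, n = 4). Without tumor 1 the change was -0.997 and passed the test (limma adjusted p = 0.034), where 8.13% of all tested miRNAs were lower, and without neocortex 1 it was -0.89 (limma adjusted p = 0.11).

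miR-132 is induced by neuronal activity through the transcription factor CREB and promotes dendrite growth. Its values were 9.88, 10.85 and 10.50 in neocortex and 10.63, 10.20, 9.59 and 8.98 in the tumors at postnatal days 65, 104, 125 and 134. The youngest 2 tumors lay within the neocortex range and the oldest 2 below it. The relation to age was not tested. The change of -0.56 (SE 0.45, 95% interval -1.65 to 0.53) did not pass the test (limma adjusted p = 0.41). It was -0.83 without neocortex 1 (limma adjusted p = 0.24) and -0.27 without tumor 4 (limma adjusted p = 0.66).

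miR-212 comes from the same cluster as miR-132, with the same seed. It was listed at 0 in all 3 neocortex samples and at 4.53, 4.4, 4.42 and 3.67 in the tumors, where 24 to 29 counts stood behind each value. The tumor values lay below every neocortex cutoff, 4.65 to 5.21, so no direction can be given for miR-212. Within each tumor, miR-132 exceeded miR-212 by 6.10, 5.80, 5.17 and 5.31 on the log2 scale. In neocortex the excess was at least 5.23, 5.97 and 5.29, with miR-212 set at the cutoff of each sample. The values and the bounds overlapped, and no test was run on the bounds.

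miR-137 affects the maturation of neurons and their synapses, and its human locus has been linked to schizophrenia. It was at 8.59, 9.73 and 8.87 in neocortex and at 9.34, 9.08, 8.48 and 8.22 in the tumors. Its groups overlapped widely, with the youngest 2 tumors inside the neocortex range and the oldest 2 below it. The change was -0.28 (SE 0.40, 95% interval -1.24 to 0.67, limma adjusted p = 0.62), -0.52 without neocortex 1 and 0.05 without neocortex 2.

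Members that act at the synapse itself also overlapped between the groups. miR-138 restrains the size of dendritic spines in rat hippocampal neurons. Its values were 8.41, 9.44 and 8.50 in neocortex and 8.42, 8.24, 8.07 and 8.51 in tumor. Neocortex 2 alone lay above the rest, and without it the change of -0.47 (SE 0.30, limma adjusted p = 0.30) became -0.15. Without neocortex 1 it was -0.66.

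miR-153 lowers proteins of transmitter release such as SNAP-25 in zebrafish. It was at 7.21, 8.57 and 8.72 in neocortex and at 7.78, 8.73, 7.67 and 7.78 in tumor. Tumor 2 held the highest value of all samples and neocortex 1 the lowest. Its change of -0.18 (SE 0.46, 95% interval -1.29 to 0.93, limma adjusted p = 0.78) was -0.66 without neocortex 1 and 0.10 without neocortex 3.

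The Mir129-2 hairpin holds the sequences of 2 members, 1 in each of its arms. In rodent neurons miR-129-5p acts in the downscaling of synapses after prolonged activity. The same miR-129-5p sequence also lies in Mir129-1 on chromosome 6, so its probe can read the product of either hairpin. Mir129-2 is printed because it holds both sequences, with miR-129-5p and miR-129-3p in capitals from left to right (RefSeq, GRCm38.p6, minus strand of chromosome 2).
Mir129-2: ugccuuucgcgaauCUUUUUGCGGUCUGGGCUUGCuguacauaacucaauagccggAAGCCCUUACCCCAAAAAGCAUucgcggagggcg

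miR-129-5p was at 6.79, 7.65 and 6.91 in neocortex and 6.68, 6.90, 6.42 and 6.16 in tumor. Only tumor 2 reached into the neocortex range, and the change was -0.58 (SE 0.29, 95% interval -1.29 to 0.13, limma adjusted p = 0.21; -0.74 without neocortex 1 and -0.31 without neocortex 2). miR-129-3p was at 9.34, 10.40 and 10.16 in neocortex and 9.68, 10.01, 9.81 and 9.37 in tumor. All 4 tumors lay inside the neocortex range, with a change of -0.25 (SE 0.31, 95% interval -0.99 to 0.49, limma adjusted p = 0.57). That change was -0.56 without neocortex 1 and -0.03 without neocortex 2. As both arms are read in the same sample, their difference does not depend on how samples were scaled. It need not compare the arms of a single hairpin, since miR-129-5p can also come from Mir129-1. miR-129-5p minus miR-129-3p was -2.55, -2.75 and -3.25 in neocortex and -3, -3.11, -3.39 and -3.21 in tumor. The groups overlapped, with means of -2.85 ± 0.36 (SD, n = 3) and -3.18 ± 0.17 (SD, n = 4). The difference of -0.33 had a 2-sided exact permutation p of 0.229, and it was -0.18 without neocortex 1. With 35 splits of 3 against 4 samples, the smallest 1-sided p is 0.0286, which the 2-sided test doubles. The test could therefore not give a p under 0.05. The values of the 2 probes are not comparable as levels, since probes differ in efficiency.

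miR-218 was the only member whose groups did not overlap. It is known from motor neurons and hippocampal neurons, and its hairpins lie within Slit2 and Slit3. Its values were 9.61, 9.93 and 9.63 in neocortex and 9.17, 9.45, 8.98 and 8.83 in tumor. Every tumor was lower than every neocortex sample, as for 19.1% of the 283 miRNAs tested. The mean went from 9.72 ± 0.18 (SD, n = 3) to 9.11 ± 0.27 (SD, n = 4), a change of -0.62 (SE 0.21, 95% interval -1.12 to -0.11). That did not pass the test over all miRNAs (limma adjusted p = 0.097). When values under 5.21, the highest of the sample cutoffs, were set to 5.21, the miR-218 values stayed as they were, 204 miRNAs were tested, and it passed (limma adjusted p = 0.044), where 16.2% of miRNAs were lower. Without neocortex 1 the change was -0.67 (limma adjusted p = 0.083).

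The remaining members are miR-139-5p and miR-149, which lie inside Pde2a, a cyclic nucleotide phosphodiesterase gene, and Gpc1, a heparan sulfate proteoglycan gene. miR-149 was at 7.47, 8.17 and 7.89 in neocortex and 6.96, 7.13, 7.58 and 6.96 in tumor. Tumor 3 alone reached into the neocortex range. The change was -0.69 (SE 0.25, 95% interval -1.3 to -0.07, limma adjusted p = 0.12) and -0.87 without neocortex 1 (limma adjusted p = 0.051). miR-139-5p, low in several human cancers, was at 7.20, 8.76 and 8.21 in neocortex and 7.63, 8.48, 7.06 and 7.40 in tumor. Its highest and lowest values, in neocortex 2 and tumor 3, lay far apart, but so did neocortex 1 and 2, and the change of -0.41 (SE 0.48, 95% interval -1.58 to 0.75) had a limma adjusted p of 0.55; it was -0.84 without neocortex 1 and -0.06 without neocortex 2. The other arm, miR-139-3p, was listed at 0 in every sample but tumor 4, at 3.09 (16 counts), so the arms of this hairpin were not compared between the groups.

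**Figure D2:**
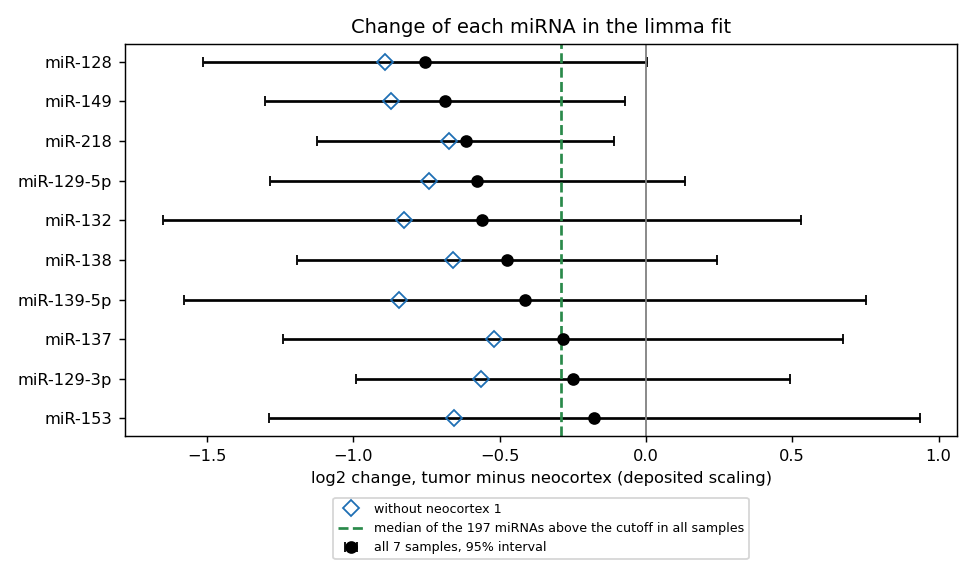
Change of each miRNA in the limma fit, tumor minus neocortex, on the log2 scale (x axis), with its 95% interval over all 7 samples (black), the value without neocortex 1 (open blue diamonds) and the median of the 197 miRNAs above the cutoff in all samples (dashed green). The intervals of miR-149 and miR-218 lie below 0, and that of miR-128 reaches 0.004. Every diamond lies to the left of its black point, as it must, since neocortex 1 was the lowest normal sample for each member.

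Leaving out neocortex 1 moved all 10 changes further below 0, to between -0.89 and -0.52 with a median of -0.71. The direction of that move follows by arithmetic, as neocortex 1 was the lowest normal sample for all 10 members. Without it limma still called 0 of 10, against 14.5% lower and 11.3% higher of all tested miRNAs. At an unadjusted p below 0.05, 3 of 10 were lower, a share near the 26.9% of all tested miRNAs that were lower on that rule. Leaving out neocortex 2, the highest normal sample for 9 of the 10 members, moved the median to -0.23, with 8 members below 0, 2 above and 0 called in limma, against 8.13% lower and 8.83% higher of all tested. Unadjusted, 0 of 10 were lower too, against 17.3% of all tested. The change without neocortex 2 was -0.61 for miR-128, -0.52 for miR-149, -0.51 for miR-218, -0.34 for miR-132 and -0.03 for miR-129-3p. With a tumor left out instead, the median of the members lay between -0.68 and -0.39.

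The samples ordered the members in similar ways within each group. In neocortex, sample 2 was highest for 9 of 10 members and sample 3 for miR-153. Among the tumors, tumor 2 was highest for 5 members and tumor 1 for 3, while tumor 4 was lowest for 6 and tumor 3 for 3 (tumors 1 and 4 were tied for miR-149). Over the 197 miRNAs above the cutoff in all samples, neocortex 2 was highest for 29.4%, tumor 2 for 25.9% and tumor 4 lowest for 36.5%. Set against the neocortex range, tumor 1 had 3 of 10 members below it, tumor 2 had 4 below and miR-153 above, tumor 3 had 7 below and tumor 4 had 6 below. This was not counted over the 197, so these counts cannot be read as particular to the members. The median SD of the members was 0.52 in neocortex and 0.41 in tumor, against 0.33 and 0.28 over the 197.

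Markers of other cells moved between the same samples. miR-338-3p and miR-219 drive the maturation of oligodendrocytes. miR-219 and miR-338-3p were highest among the normal samples in neocortex 1, at 11.65 and 12.11, and lowest among the tumors in tumor 2, at 8.47 and 9.28. The other oligodendrocyte miRNA, miR-338-5p, did not follow that order. It was at 6.09, 6.84 and 6.38 in neocortex 1 to 3, lowest in neocortex 1, and its lowest tumor value was 4.61 in tumor 4. The summed level of the 3 oligodendrocyte miRNAs (log2 of the summed linear values, as for the lists below) was 12.55 to 12.91 in neocortex and 9.97 to 11.18 in tumor. All 3 fell in limma. The sum over 7 microglial and white blood cell miRNAs was 9.49 to 9.85 in neocortex and 9.43 to 10.27 in tumor, with miR-142-5p and miR-146a at 0 in all neocortex samples and 2 of 6 tested miRNAs, miR-142-3p and miR-146a, higher. Its most abundant tested miRNAs, miR-342-3p and miR-150, had changes of -0.54 and -0.48 that did not pass the test. The sum over the 4 vessel miRNAs was 10.23 to 10.59 and 10.67 to 11.66, that over the 3 red blood cell miRNAs 8.07 to 8.51 and 8.63 to 9.40, and that over the 3 astrocyte miRNAs 12.98 to 13.40 and 13.65 to 13.99, with no miRNA of these 3 lists at 0 in all neocortex samples. In limma these 3 lists had 0 calls, with 1 vessel, 0 red blood cell and 2 astrocyte miRNAs higher at an unadjusted p below 0.05. Their most abundant tested miRNAs had changes that did not pass the test, miR-126-3p and miR-145 by 0.94 and -0.22, miR-451 and miR-144 by 0.71 and 0.70, and miR-29b and miR-29a by 0.70 and 0.66. The choroid plexus and ependyma list had 0 of 5 called (0 unadjusted), with miR-204 at -0.09 and miR-34c at -0.47. The summed level of the 10 members was 12.28 to 13.12 in neocortex and 11.81 to 12.58 in tumor. The part of these cells in the members' values was not tested.

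**Figure D3:**
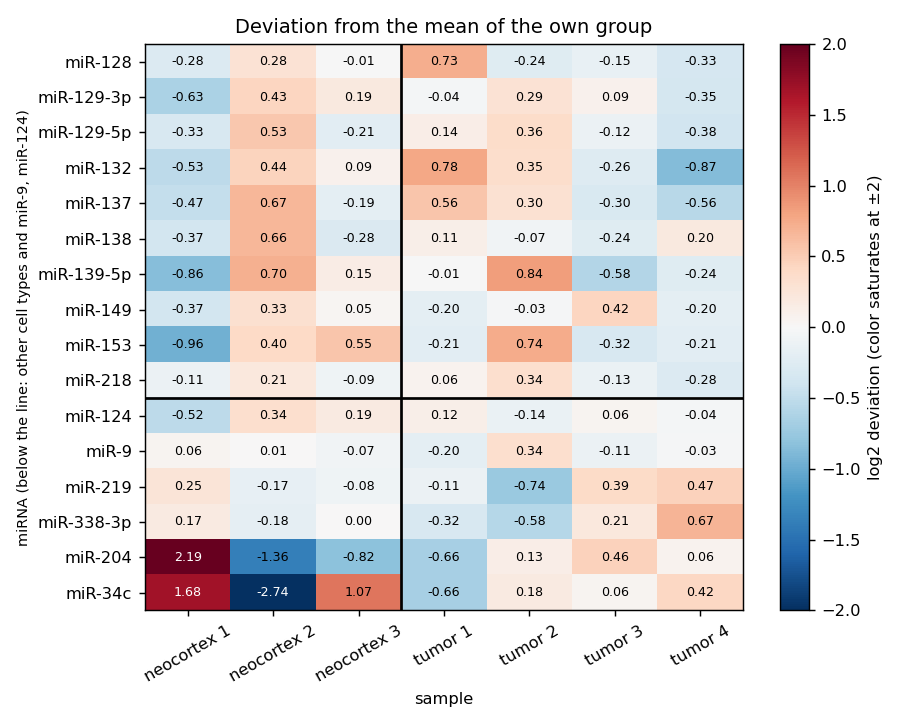
Deviation of each miRNA from the mean of its own group on the log2 scale, by sample (columns), for the 10 members (above the line) and for miR-124, miR-9, the oligodendrocyte miRNAs miR-219 and miR-338-3p and the choroid plexus and ependyma miRNAs miR-204 and miR-34c (below it); color saturates at 2 units. All 10 members and miR-124 are below their group mean in neocortex 1, where miR-204 is 2.19 above it. The other miRNAs of these lists are not drawn and did not all follow that order. Of the normal samples, neocortex 1 was lowest for miR-338-5p (6.09) and highest for miR-34b-3p (7.32) and miR-34b-5p (6.99). miR-449a was at 0 in neocortex 1 and 2.

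The other miRNAs enriched in neurons had changes on both sides of 0 as deposited, where all 10 members lay below it. Most of those above it were listed at 0 in some neocortex samples, which raises the change by construction. Their summed log2 level was 13.95 ± 0.27 (SD, n = 3) in neocortex and 14.10 ± 0.12 (SD, n = 4) in tumor, with overlapping groups. That sum weighs the brightest miRNAs most, here miR-9 and miR-124, which changed by 1.22 and -0.85. It therefore does not show the direction of most of the list. Of 34 listed by name, 32 had a probe of that name and 27 were tested. The limma fit called 1 of these higher and 0 lower (26 uncalled), with a median of -0.23, 18 below 0 and 9 above. The one that rose was miR-9, abundant in neural progenitors and mature brain, by 1.22 (SE 0.19, limma adjusted p = 0.0091). miR-124 was at 12.21, 13.07 and 12.92 in neocortex and at 12, 11.74, 11.94 and 11.84 in tumor, with every tumor lower, a change of -0.85 and a limma adjusted p of 0.060. Among those above the cutoff in all samples, where 20 of the list were tested, 4 were lower and 1 higher in limma, against 20.8% lower and 9.14% higher of the 197. The median change of these 20 was -0.36, against -0.29 over the 197 and -0.52 for the members, so lower values were not particular to the members. Without neocortex 1, limma called 5 of the list lower and 1 higher.

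Set against miR-124 in each sample, all 10 members had a higher mean in tumor, and none passed the test. The changes ran from 0.10 for miR-128 to 0.68 for miR-153, with 0 of 10 called in limma (0 unadjusted as well), against 14.9% called higher and 0% called lower of the 282 miRNAs tested. The median of all tested miRNAs was 0.90 on this scale and that of the members 0.34. A difference from miR-124 within a sample shows unequal change and does not say which of the miRNAs moved.

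Directions rested on the basis of the scaling. On the positive-control probes, added to each assay in fixed amounts, all 10 members were higher in tumor, by 0.96 to 1.54, and limma called 10 of 10, against 80.6% of all tested miRNAs. That scaling moved the median of all tested miRNAs from 0.03 to 1.74. All 10 members lay below it, as they did on the deposited scaling, since such a shift moves members and median together. On the housekeeping mRNA probes Actb, Gapdh and Rpl19, limma called 9 of 10 lower, all but miR-153, and 0 higher, against 47.7% lower and 3.53% higher of all tested, with a median over all of -0.93 and members at -1.71 to -1.14. On every scaling tried miR-128 was the lowest member and miR-153 the highest. A scaling that shifts each sample by 1 number moves all members alike and cannot change their order. Only quantile normalization could have changed it, and there they were at -0.67 and -0.01.

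**Figure D4:**
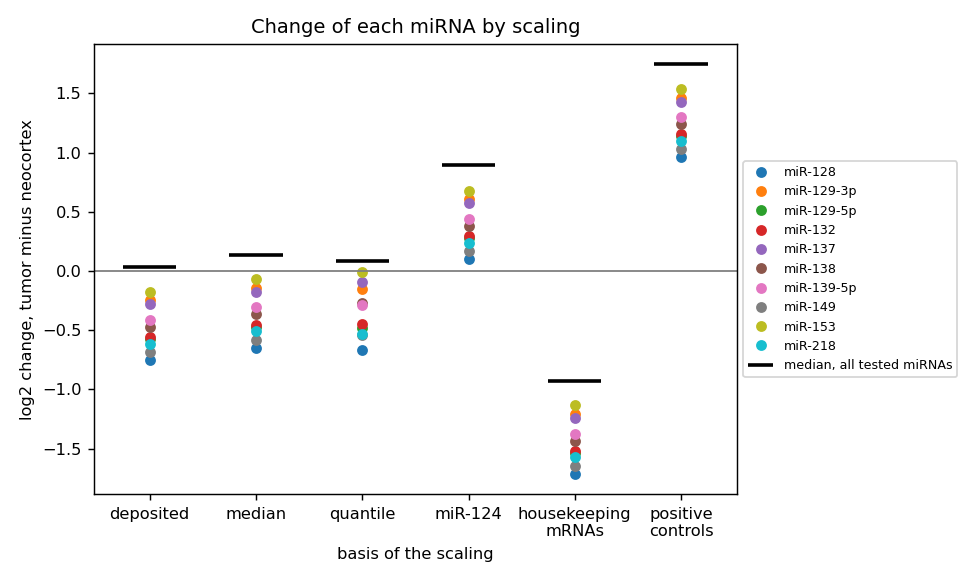
Change of each of the 10 miRNAs, tumor minus neocortex on the log2 scale (y axis), by the basis of the scaling (x axis), with the median of all tested miRNAs as a black bar. The points lie below 0 with the deposited, median, quantile and housekeeping scaling, above 0 with miR-124 and the positive controls, and below the black bar in each. Except with quantiles, points and bar shift together, so their order is not a separate result for each scaling. The bar includes miRNAs listed at 0 in some samples. Against the median of the 197 above the cutoff in all samples, miR-129-3p, miR-137 and miR-153 lay higher as deposited, by 0.04, 0.01 and 0.12.

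For each member the 2 other miRNAs with the most similar profile over the 7 samples were taken from 187 miRNAs above the cutoff in all samples, by Pearson's r, as a description. The samples share their group, library and scaling. The closest were miR-335-5p for miR-128 (r = 0.97), miR-541 for miR-129-3p (0.95), miR-667 for miR-129-5p (0.99), miR-487b for miR-132 (0.98) and miR-137 (0.96), and miR-3099 for miR-138 (0.92). For the rest they were miR-500 for miR-139-5p (0.94), miR-190b for miR-149 (0.94), miR-127 for miR-153 (0.83) and miR-1839-3p for miR-218 (0.94). In second place were miR-2134, miR-136 (for both arms of miR-129), miR-202-5p, miR-410, miR-376c, miR-381, miR-338-5p, miR-328 and miR-1907. Of the 18 different miRNAs so named, 17 could be located by gene symbol in the GRCm38.p6 table. Of these, 8 lie in a stretch of 1 Mb on chromosome 12 that holds an imprinted miRNA cluster: miR-127, miR-136, miR-376c, miR-381, miR-410, miR-487b, miR-541 and miR-667. That is 47.1% of the located miRNAs, against 26 of the 155 candidates that could be located (16.8%). The 18 were picked by r in these same samples, and miRNAs of a single cluster are not independent of each other. These shares are a description, and the difference between them was not tested.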

How the data were processed

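Total RNA of 3 neocortex and 4 tumor samples was measured with the nCounter mouse miRNA panel, version 1.3, per the labels and the design text. The authors deposited 1 log2 value per probe and sample, rounded to 2 decimals. How they scaled and background-corrected it, and in which software, is not stated in the labels or the design text. At the low end the linear values of each sample were whole multiples of 1 number (100% of 151 to 264 values of up to 60 counts, tolerance 0.02 counts plus rounding), which gave the recovered counts. No count model was run on log2 values.

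Tumor was compared with neocortex in limma 3.58.1 (R 4.3.3, lmFit and eBayes, 2-sided, no covariate) on the deposited values. The fit covered 283 miRNAs, those with a mean log2 value no lower than the median of such means over all 566 (2.80), with Benjamini-Hochberg adjustment over all 283. The fit was tested on simulated data. The difference of the miR-129 arms was tested by exact permutation (scipy 1.17.1). The miR-132 and miR-212 pair and the miR-139 arms were planned as tests too and were left out because of values at 0, so no adjustment over pairs was made. Alternatives were other scalings, filters, handling of 0, models, sexes, a replicate block and each sample left out. Members, lists and alternatives were chosen with earlier results of these data known. Named miRNAs are all members, their cluster and hairpin partners, listed miRNAs that passed the test, the 2 most abundant tested miRNAs of each list, and the 2 most similar miRNAs of each member.

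The replicate numbers shared by the groups were not used as pairs in the main fit. Across 197 miRNAs, the deviations of same-numbered samples correlated at -0.07, 0.12 and 0.07, and those of differently numbered samples at -0.31 to 0.23. These values cannot show whether same-numbered samples were handled together.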

Additional observations from a re-analysis of the deposited data

Results flagged for a closer look

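In the tumor group, miR-128 in tumor 1 (10.57) and miR-153 in tumor 2 (8.73) each lay apart from the other 3 tumors, with a gap to the nearest of them of 0.83 and 0.90 of the group's whole range, above Dixon's 95% critical value for 4 samples. Chance flags about 1 in 20 groups, and 10 miRNAs were looked at. miR-128 without tumor 1 changed by -0.997, and miR-153 without tumor 2 changed by -0.42, which did not pass the test (limma adjusted p = 0.55).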

How the results depend on the processing

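The members kept their direction and their side of the threshold with median scaling, the 100 brightest miRNAs, quantiles, no filter, the miRNAs above the cutoff in all samples, the negative-control mean subtracted, a pseudocount of 10, the trend and robust fit, sex as a covariate, male samples only and the replicate block. On the positive-control probes all turned: miR-128 0.96, miR-129-3p 1.46, miR-129-5p 1.14, miR-132 1.15, miR-137 1.43, miR-138 1.24, miR-139-5p 1.30, miR-149 1.03, miR-153 1.54 and miR-218 1.10, with 10 members, 23 other neuron-enriched miRNAs and 228 miRNAs in all called higher and 0 lower (limma; 231 and 0 at an unadjusted p under 0.05). Relative to miR-124 they turned to 0.10, 0.60, 0.28, 0.29, 0.57, 0.38, 0.44, 0.17, 0.68 and 0.24 in that order, with 42 miRNAs higher and 0 lower (107 and 6 unadjusted). On the housekeeping probes 9 members, 18 other neuron-enriched miRNAs and 135 miRNAs in all were lower and 10 higher. With values raised to the highest cutoff 1 member, miR-218, was lower and 4 other neuron-enriched miRNAs were called. Against 23 higher and 27 lower as deposited, there were 67 higher with no filter, 41 lower among miRNAs above the cutoff in all samples, 15 higher with sex as a covariate and 6 lower in male samples. The other neuron-enriched list, with 1 call as deposited, had 5 with no filter, 5 among miRNAs above the cutoff in all samples, 2 with the pseudocount, 4 in the trend and robust fit and 2 in males.

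With the replicate block 5 miRNAs were higher and 0 lower (28 and 31 unadjusted), the other neuron-enriched list had 0 calls, and no call of a member changed. The miR-129 arm difference was then -0.32 (exact sign-flip p = 0.25). That is the smallest p that this test can give with 3 pairs, so it could not pass. Not every sample correlated best with its own number.

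Leaving out each sample in turn gave 13 to 32 higher and 10 to 41 lower miRNAs, 0 to 1 members lower, 1 to 6 other neuron-enriched calls, and a miR-129 arm difference of -0.53 to -0.18. The member called was miR-128 without tumor 1. The members' changes lay at -0.997 to -0.61 for miR-128, -0.56 to -0.03 for miR-129-3p, -0.74 to -0.31 for miR-129-5p, -0.83 to -0.27 for miR-132, -0.52 to 0.05 for miR-137, -0.66 to -0.15 for miR-138, -0.84 to -0.06 for miR-139-5p, -0.87 to -0.52 for miR-149, -0.66 to 0.10 for miR-153 and -0.73 to -0.51 for miR-218. Without neocortex 2 miR-153 was at 0.025 and miR-137 at 0.05, and without neocortex 3 miR-153 was at 0.10. The causes of these changes were not tested. No difference between tumor and neocortex in miR-132 minus miR-212 or in the miR-139 arms was computed, as miR-212 and miR-139-3p were at 0 in all neocortex samples. Depth limited miR-129-5p most.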
